A study of Mus musculus with 16 samples.

Results

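The genes described here encode the proteins that carry iron into fat cells and their neighbours, store it and let it out: Trf, Tfrc, Tfr2, Slc11a2, Fth1, Ftl1, Slc40a1, Heph, Aco1 and Ireb2. They were chosen by name, with earlier results of these data known, since lipocalin-2 (LCN2) binds siderophores, small molecules that hold iron. All 10 had a row among the 30325 genes of the gonadal table and the 30946 genes of the subcutaneous table, and all 10 passed the filter on low values in both, which kept 19536 and 20302 genes. RNA was sequenced from the gonadal and the subcutaneous fat of female C57BL/6J mice. Every mouse, controls included, carried the Lcn2-null allele Lcn2tm1Aade and ate an HF/HS diet until 16 weeks of age. At 8 weeks the mice had received an AAV8 vector by vein that carried either LCN2 or, as the control, green fluorescent protein (GFP). The adiponectin promoter, active in fat cells, drove both constructs, and a microRNA122 target sequence at their 3′ end served to remove transcripts made in liver. There were 4 samples for each vector and depot, 16 in all. The labels give the group size but do not tie each sample to a mouse of its own, so the p-values measure only how far these samples spread, which may be technical in part.

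Iron travels in plasma on transferrin, which cells take up through transferrin receptors. Freed iron leaves the endosome through the transporter DMT1 and is stored inside ferritin, a shell of heavy and light chains. It leaves the cell through ferroportin, helped by copper-bearing oxidases such as hephaestin. When iron is scarce, the iron regulatory proteins IRP1 and IRP2 bind hairpins called iron-responsive elements. Bound near the start of a transcript they block translation, which counts of transcripts do not show, and bound in the 3′ UTR of the Tfrc transcript they protect it from decay.

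These hairpins tie several of the genes together, so those found in the transcripts are shown first. A search of annotated UTRs looked, on the transcript strand, for the loop CAGTGN, with N being A, C or T, on a stem of 5 pairs above an unpaired C. G-T pairs were allowed and mismatches were not. Such a stretch was found in 0.11% of genes with a 5′ UTR and in 0.474% of genes with a 3′ UTR. Among the 10 genes it was found once in the 5′ UTR of Fth1, Ftl1 and Slc40a1 and 4 times in the 3′ UTR of Tfrc. The stretches are given 5′ to 3′ from GENCODE M21 transcripts on GRCm38, with the loop in capitals.
Fth1, 5′ UTR, chr19:9982732-9982760, plus strand: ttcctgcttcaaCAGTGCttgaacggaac
Ftl1, 5′ UTR, chr7:45459779-45459807, minus strand: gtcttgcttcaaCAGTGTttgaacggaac
Slc40a1, 5′ UTR, chr1:45925465-45925493, minus strand: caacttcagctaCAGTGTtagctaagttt
Tfrc, 3′ UTR, chr16:32631219-32631247, plus strand: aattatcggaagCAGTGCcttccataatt
Tfrc, 3′ UTR, chr16:32631598-32631626, plus strand: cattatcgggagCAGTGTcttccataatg
Tfrc, 3′ UTR, chr16:32631663-32631691, plus strand: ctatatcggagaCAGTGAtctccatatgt
Tfrc, 3′ UTR, chr16:32631710-32631738, plus strand: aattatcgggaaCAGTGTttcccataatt
No such stretch was found in Tfr2, Trf, Heph, Slc11a2, Aco1 or Ireb2. This says only that no stretch of this strict form is in their annotated UTRs. A hairpin with a mismatch or an extra unpaired base in its upper stem would be missed.

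Gonadal libraries held between 35173260 and 42890102 reads, recovered from counts that the authors had divided by 1 size factor per sample. The depth of the subcutaneous samples is unknown, and their values are rlog values, a log2 scale that draws low genes towards their mean. All 10 adipocyte markers listed, such as Adipoq, were measured in both depots. Lcn2 itself separated the vectors in each depot, with every LCN2 sample above the top GFP sample. Its normalized count in gonadal fat was 103, 62.1, 70.0 and 89.5 in GFP replicates 1 to 4 and 186, 189, 522 and 481 in LCN2 replicates 1 to 4, a log2 difference of 1.93 ± 0.37 (SE; limma, adjusted p = 0.108). Gonadal GFP replicate 1 and LCN2 replicates 1 and 2 held the most transcript of the hepatocyte gene Alb. Gonadal LCN2 replicate 4 held the most transcripts of skeletal muscle, and subcutaneous GFP replicates 1 and 2 those of lymphocytes. Lymphocyte markers averaged an rlog of 10.09 and 9.29 in those 2 libraries and 5.71 to 7.85 in the other subcutaneous samples.

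Per kilobase of exon, the storage genes stood far above the rest in gonadal fat with the GFP vector. Ftl1 had a normalized count per kilobase of 32959 ± 7278 (SD, n = 4) and Fth1, the heavy chain with the iron-oxidizing centre, 13850 ± 1929 (SD, n = 4). Next came Aco1, which encodes IRP1, at 2104 ± 826, and Trf, which encodes transferrin itself, at 1217 ± 195, and their ranges over the 4 samples overlapped. Heph followed at 579 ± 97.8 and Ireb2, the gene of IRP2, at 265 ± 28.8, each apart from its neighbours. Slc11a2, the gene of DMT1, at 156 ± 12.4, Tfrc, the classical transferrin receptor, at 122.3 ± 27.98, and Slc40a1, the gene of ferroportin, at 97.2 ± 17.2, formed a run in which the ranges of neighbours overlapped. Tfr2 was lowest at 24.7 ± 5.33, apart from Slc40a1. With the LCN2 vector Tfr2 stood at 125 ± 40.7 per kilobase, and its 4 samples, from 73.8 to 164.9, overlapped in range with those of Slc40a1, Tfrc and Slc11a2. With the length of the principal transcript in place of all exons, an alternative added after seeing the data, Tfrc and Slc40a1 changed places and the rest of the order was the same. The levels moved, to 45626 for Ftl1 and 32158 for Fth1 with GFP. With LCN2, Tfr2 then stood at 177 and Slc11a2 at 361. The statements on ranges above hold for the length of all exons only.

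**Figure D1:**
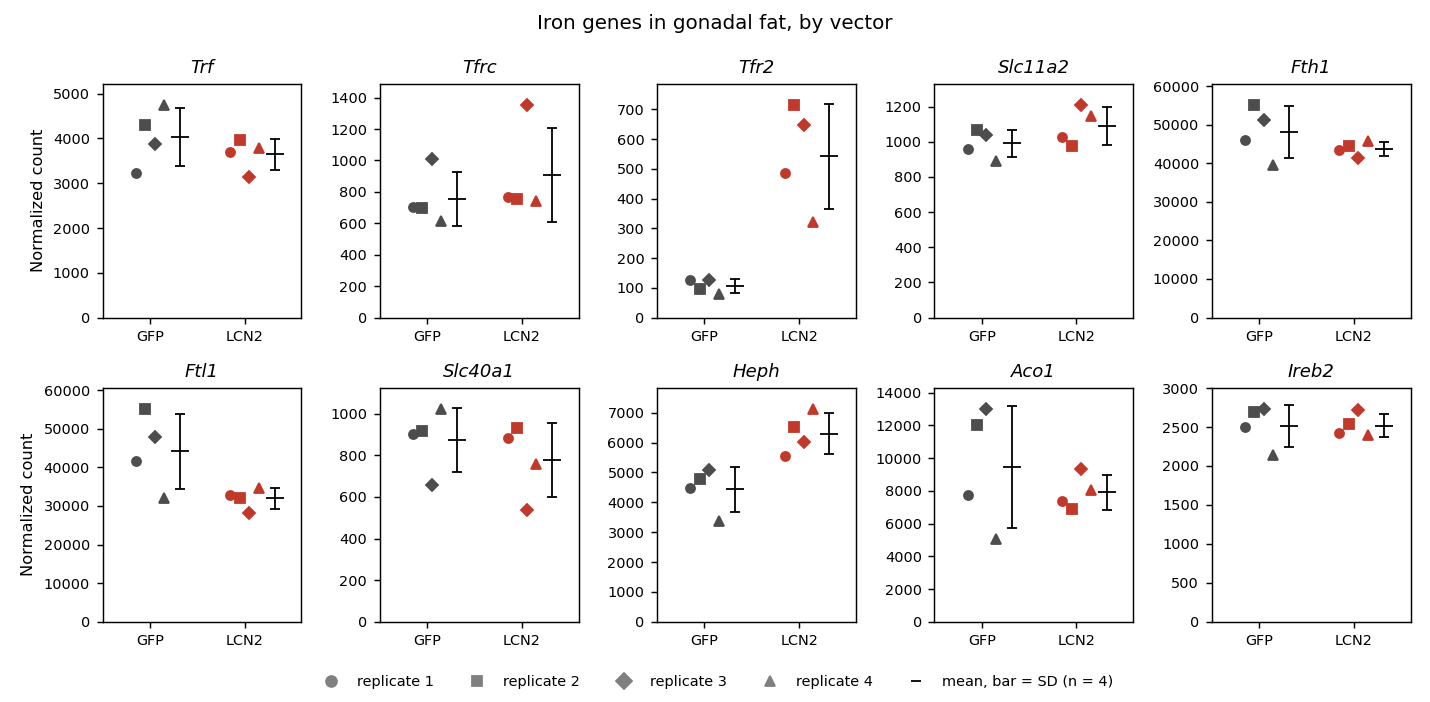
Normalized counts of the 10 iron genes in gonadal fat for each of the 4 GFP and 4 LCN2 samples, each panel with its own linear axis from 0. Points are samples, their shape is the replicate number, and bars are the mean and SD. In the Tfr2 and Heph panels all LCN2 samples lie above all GFP samples.

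Tfr2 was the 1 of 10 genes that passed limma's test between the vectors in gonadal fat. It encodes the other transferrin receptor, which is best known from liver and red cell precursors, where it takes part in sensing iron (chr5:137569840-137587481, plus strand; this and the other gene positions are from GENCODE M21 on GRCm38). Its normalized count was 127, 97.7, 125 and 78.7 in the GFP samples and 487, 715, 647 and 320 in the LCN2 samples. The lowest LCN2 sample lay well above the highest GFP sample. The mean was 542 ± 176 (SD, n = 4) against 107 ± 23.1 (SD, n = 4), a 5.07-fold difference. Tfr2 thus rose by 2.29 ± 0.26 (SE) on the log2(normalized count + 1) scale (limma, adjusted p = 0.0339). Over all 19536 genes, 0.102% passed this test in either direction, 0.041% higher with LCN2 as Tfr2 was and 0.0614% lower. On recovered reads Tfr2 also passed with edgeR (adjusted p = 0.0456), as did 0.0205% of genes in its direction and 0.0358% in either. The call was lost in 5 of 8 fits that left out 1 library, with adjusted p from 0.023 to 0.131 over the 8, while the log2 difference stayed between 2.14 and 2.52. Those 5 were without GFP replicate 1, 2 or 3 and without LCN2 replicate 2 or 3.

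Within the LCN2 group, Tfr2 did not follow the order of Lcn2. Tfr2 was highest in LCN2 replicates 2 and 3, and Lcn2 in replicates 3 and 4. Because Tfr2 is also a liver gene, hepatocyte transcripts are given beside it. Alb had normalized counts of 9989, 1517, 1928 and 1773 in the GFP samples and 11019, 28487, 3198 and 1271 in the LCN2 samples, so its groups overlapped. LCN2 replicate 2 had the highest Alb and, at 715, the highest Tfr2 of all 8 samples. GFP replicate 1 was highest for both among the GFP samples. LCN2 replicate 4 had the lowest Alb of all 8 samples. Its Tfr2 count of 320 was the lowest of the LCN2 group and above every GFP sample. Among GFP samples the lowest Alb was in replicate 2 and the lowest Tfr2 in replicate 4. Of 15 hepatocyte genes listed, all were measured, 14 had a positive difference, none passed the test and none had groups that did not overlap. Their median log2 difference was 1.33. None of them was at 0 in every sample. Their summed normalized count ran from 46922 to 204790 with GFP and from 29476 to 104180 with LCN2. This sum did not track Alb, since it was highest in GFP replicate 2, where Alb was 1517. A sum is weighted to the most abundant genes, while the median difference is not. The list includes Cyp2e1, which fat also expresses, and its part in the sum was not tested. Of 12 erythroid genes listed 8 were tested, 7 had a positive difference and none passed, and their summed normalized count ran from 41153 to 78478 with GFP and from 37968 to 131250 with LCN2. The part of either cell type in the Tfr2 counts was not tested. Without GFP replicate 1 and LCN2 replicates 1 and 2, the libraries richest in Alb, the log2 difference of Tfr2 was 2.19 ± 0.35 (limma, adjusted p = 0.321). Without GFP replicate 2 and LCN2 replicate 4, the library of each group with the most muscle transcripts, it was 2.49 ± 0.24 (adjusted p = 0.161).

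In subcutaneous fat Tfr2 leaned the same way, but its groups overlapped. Its rlog was 6.14, 6.51, 5.82 and 6.29 in the GFP samples and 6.51, 6.74, 6.83 and 6.34 in the LCN2 samples. GFP replicate 2 lay above LCN2 replicate 4. That GFP library also held the most hepatocyte transcripts of the depot, with a mean rlog of 8.67 over the 15 markers against 6.03 to 7.09 in the other 7 samples, and its part in the Tfr2 value was not tested. The difference was 0.42 ± 0.16 (SE; limma, adjusted p = 0.33), and it was 0.24 with samples weighted by quality. No subcutaneous gene passed, a share of 0%. Since rlog draws low genes together and the depots were normalized separately, the sizes in the 2 depots cannot be set against each other, and a difference between depots was not tested.

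By likeness over the 8 gonadal samples, the genes nearest to Tfr2 were Slc35f6, Dhx8, Glyctk, Zfp407 and Higd2a. Likeness was the root mean squared difference of z-scored values, which was 0.101 for Slc35f6 and between 0.217 and 0.267 for the other 4. Slc35f6 had a log2 difference of 0.29 ± 0.07 and Glyctk, a glycerate kinase gene, one of 0.91 ± 0.18. None of these 5 passed limma's test, with adjusted p from 0.103 to 0.364. DESeq2 on recovered reads called all of them but Dhx8 (adjusted p = 0.203), with adjusted p from 1.04e-05 for Higd2a to 0.0178 for Zfp407. It called 4.29% of all genes, 2.33% in this direction. The measure ignores size, and it was lowest for genes whose groups do not overlap.

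Tfrc (chr16:32608920-32632794, plus strand), the receptor that most cells use for transferrin, showed no difference that passed. Its normalized count was 704, 700, 1009 and 614 with GFP and 767, 756, 1354 and 743 with LCN2. LCN2 replicate 3 stood far above the other LCN2 samples, which lay within the GFP range. The log2 difference was 0.23 ± 0.22 (limma, adjusted p = 0.684), and it was 0.02 without LCN2 replicate 3. In subcutaneous fat its rlog was 9.68, 9.67, 9.69 and 9.38 with GFP and 9.50, 9.29, 10.27 and 9.54 with LCN2. Here too LCN2 replicate 3 was highest. The difference was 0.05 ± 0.20 (adjusted p = 0.926).

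Transferrin and the endosomal importer showed no difference that passed either. Trf (chr9:103204001-103230444, minus strand) averaged 3648 ± 351 normalized counts (SD, n = 4) in gonadal LCN2 samples and 4041 ± 647 in GFP samples, a log2 difference of -0.14 ± 0.13 (limma, adjusted p = 0.677). Its rlog in subcutaneous fat was 11.58 ± 0.07 against 11.40 ± 0.30. GFP replicate 1 was lowest there, at 10.96, and without both lymphocyte-rich GFP libraries the difference went from 0.18 to -0.0048. The read-through gene Gm20425 covers 63.5% of the exonic bases of Trf on the same strand, and how shared reads were counted is not given. Slc11a2 (chr15:100387898-100425072, minus strand) averaged 1091 ± 107 normalized counts with LCN2 against 990.2 ± 78.9, a log2 difference of 0.14 ± 0.10 (adjusted p = 0.562), and a subcutaneous difference of 0.02 ± 0.07.

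Among the oxidase and exporter, Heph had groups that did not overlap in either depot. Heph (chrX:96455359-96574485, plus strand) encodes hephaestin, the membrane-bound copper oxidase that oxidizes exported iron. Its normalized count in gonadal fat was 4481, 4786, 5094 and 3375 with GFP and 5541, 6533, 6002 and 7120 with LCN2. Its rlog in subcutaneous fat was 11.42, 11.33, 11.72 and 11.58 with GFP and 11.89, 12.09, 12.19 and 12.00 with LCN2. All 4 LCN2 samples were higher in each depot. The difference was 0.52 ± 0.14 (SE) on the log2(normalized count + 1) scale in gonadal fat and 0.54 ± 0.10 in rlog in subcutaneous fat. Neither passed limma's test over all genes, with adjusted p of 0.181 and 0.308, the latter a tied value that the adjustment gave to many subcutaneous genes. Without subcutaneous GFP replicates 1 and 2 the difference there was 0.40 ± 0.10. DESeq2 on the recovered gonadal reads called Heph (adjusted p = 0.0255), along with 4.29% of all genes, 2.33% in its direction.

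Non-overlapping groups were not rare. In gonadal fat 2 of the 10 genes, Tfr2 and Heph, had such groups, both higher with LCN2, and so did 9.11% of all genes, 4.4% higher and 4.71% lower. In subcutaneous fat 1 of the 10, Heph, had them, and so did 7.08% of all genes, 3.81% higher and 3.27% lower. Among the 19109 genes tested in both depots, 0.843% were apart and higher with LCN2 in both, as Heph was. Whether equal replicate numbers in the depots mean 1 mouse is not stated in the labels.

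Markers of other cells are given beside these genes, and their part in the values of Tfr2 and Heph was not tested. In a piece of tissue, more cells of a type and more RNA per cell cannot be told apart. The 8 endothelial markers all had a positive difference in both depots, though their summed levels overlapped between the vectors. Their summed normalized count was 18858 to 39272 with GFP and 38180 to 43634 with LCN2 in gonadal fat, and their mean rlog was 10.68 to 11.44 against 11.31 to 11.54 in subcutaneous fat. In gonadal fat the 12 proliferation markers summed to 572 to 961 with GFP and 1193 to 2752 with LCN2, and 10 of 12 had groups that did not overlap. The 10 mesothelial markers summed to 7104 to 14908 with GFP and 3122 to 7452 with LCN2, and 5 of 10 had such groups. The 10 skeletal muscle markers tested all had a positive difference in gonadal fat, with a median of 1.93, and the 11 listed summed to 1176 to 3399 with GFP and 2152 to 63516 with LCN2. In subcutaneous fat the differences of all 15 hepatocyte markers were below 0 (median -0.74), as were those of all 10 lymphocyte markers (median -1.35). GFP replicate 2 was highest for the hepatocyte list and GFP replicate 1 for the lymphocyte list. No marker on these lists passed limma's test and none was at 0 in every sample.

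Slc40a1 (chr1:45908068-45926523, minus strand) encodes ferroportin, the exporter that hepcidin removes from the cell surface. Its normalized count was 902, 919, 658 and 1022 with GFP and 883, 931, 536 and 756 with LCN2, with overlapping groups. The log2 difference was -0.18 ± 0.20 (limma, adjusted p = 0.723). In subcutaneous fat its rlog was 8.86, 9.12, 9.09 and 9.48 with GFP and 9.56, 9.45, 9.07 and 9.41 with LCN2. The difference was 0.23 ± 0.15 (adjusted p = 0.482).

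**Figure D2:**
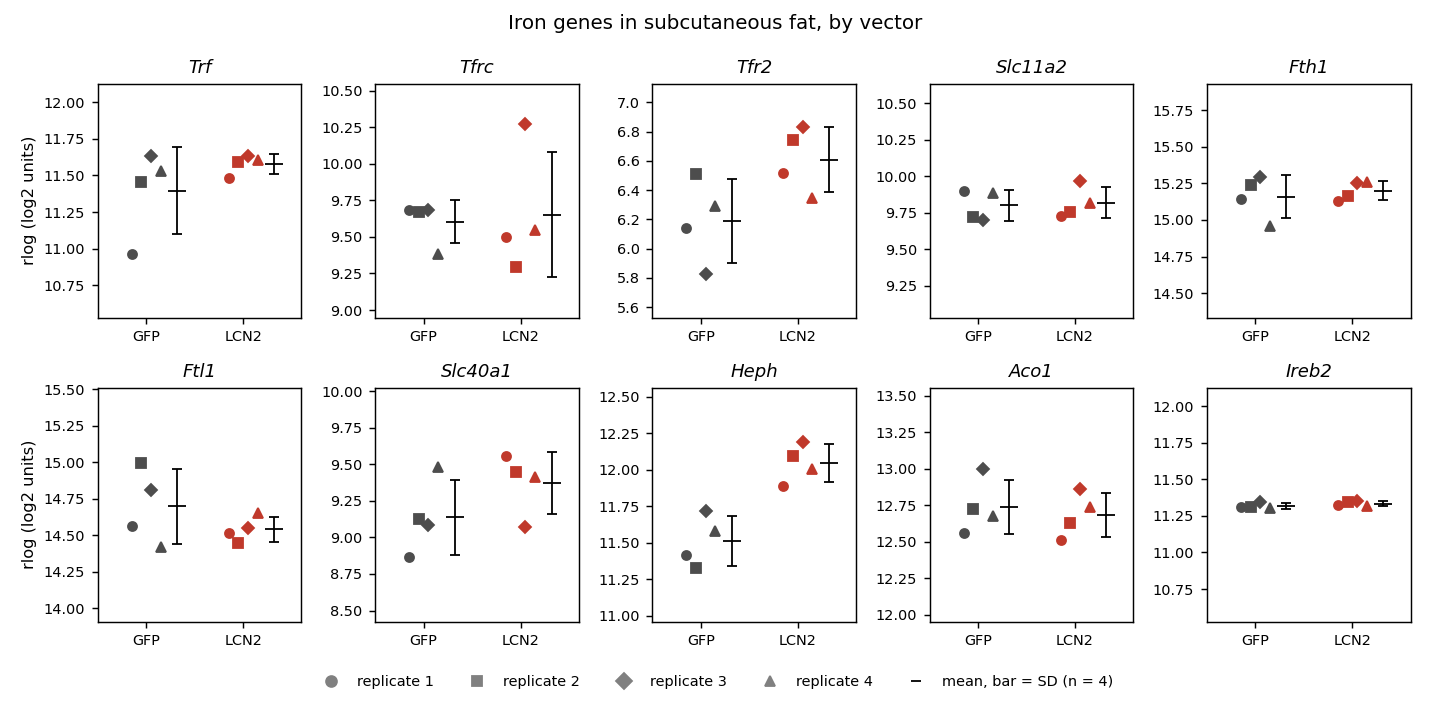
The rlog values of the 10 iron genes in subcutaneous fat for each of the 4 GFP and 4 LCN2 samples, each panel spanning the same height in log2 units but not starting at 0. Points are samples, their shape is the replicate number, and bars are the mean and SD. Only in the Heph panel do the groups not overlap.

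Across samples, Tfrc and Slc40a1 ran against each other. In gonadal fat LCN2 replicate 3 had the highest Tfrc and the lowest Slc40a1 of all 8 samples, and GFP replicate 4 the lowest Tfrc and the highest Slc40a1. Pearson's r over the 8 gonadal samples on the log2 scale was -0.955 (exact permutation p = 0.00134, adjusted p = 0.0375). Spearman's rho was -0.81 (exact permutation p = 0.0218, adjusted p = 0.278). Without the samples farthest in Tfrc, GFP replicate 3 and LCN2 replicate 3, r was -0.649, and with each group centred on its mean it was -0.95. In subcutaneous fat r was -0.63 (exact permutation p = 0.0684, adjusted p = 0.412), or -0.86 without LCN2 replicates 2 and 3, and rho -0.833 (exact permutation p = 0.0154, adjusted p = 0.278), so the relation did not pass there. Adjustment was over 56 pairs, 28 in each depot, among the 8 genes other than Tfr2 and Heph. Tfr2 and Heph, whose gonadal groups did not overlap, were left out in both depots, although the subcutaneous groups of Tfr2 overlapped.

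**Figure D3:**
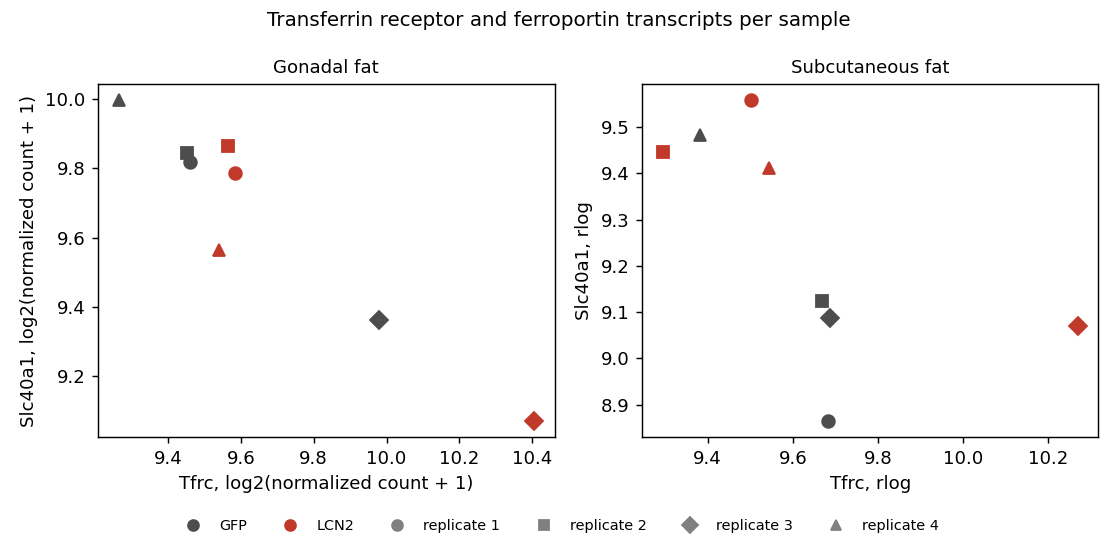
Slc40a1 against Tfrc in each sample, on the log2(normalized count + 1) scale in gonadal fat and as rlog in subcutaneous fat. Colours are the vector and shapes the replicate number. LCN2 replicate 3 sits at the right in both depots, and r is -0.955 in gonadal and -0.63 in subcutaneous fat.

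The ferritin genes ran together across the gonadal samples, and the mean of the light chain was lower with LCN2. Ftl1 (chr7:45457944-45459884, minus strand) had a normalized count of 41646, 55086, 47853 and 32078 with GFP and 32902, 32110, 28272 and 34540 with LCN2. GFP replicate 4 lay within the LCN2 range, so the groups overlapped. The log2 difference was -0.44 ± 0.18 (limma, unadjusted p = 0.036, adjusted p = 0.299). Fth1 (chr19:9980598-9985098, plus strand) had 46150, 55136, 51231 and 39660 with GFP and 43440, 44434, 41247 and 45656 with LCN2. Its groups overlapped too, and its log2 difference was -0.13 ± 0.14 (adjusted p = 0.743). Pearson's r between them was 0.935 over the 8 samples (exact permutation p = 0.000719, adjusted p = 0.0375) and rho was 0.952 (exact permutation p = 0.00114, adjusted p = 0.0639). Without the samples farthest in Fth1, GFP replicates 2 and 3, r was 0.7. In subcutaneous fat r was 0.644 (exact permutation p = 0.0862, adjusted p = 0.412), 0.505 without GFP replicates 3 and 4, and rho was 0.714 (exact permutation p = 0.0576, adjusted p = 0.278).

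Read counts of Ftl1 are uncertain because the genome holds near-copies of it. Ftl1-ps1, Ftl1-ps2 and Ftl2-ps had gonadal log2 differences of -0.44 ± 0.17, -0.45 ± 0.15 and -0.46 ± 0.17, close to that of Ftl1, and none passed. Ftl1 held 46.2% to 46.7% of the normalized counts of Ftl1 and these copies in all 8 samples. Summing Ftl1 and its copies, chosen after seeing the data, gave 95315 ± 20834 normalized counts (SD, n = 4) for GFP and 68851 ± 6004 for LCN2, a log2 difference of -0.45 ± 0.18. Ftl1 also shares 26.5% of its exonic bases with Gm10252 on the opposite strand, and the strand setting of the counting is not given in the sources used here.

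Compared within each sample, where scaling between samples drops out, the heavy chain stood higher against the light chain with LCN2. The ratio of Fth1 to Ftl1 normalized counts in gonadal fat was 1.108, 1.001, 1.071 and 1.236 with GFP and 1.32, 1.384, 1.459 and 1.322 with LCN2. These groups did not overlap. In subcutaneous fat the rlog of Fth1 minus that of Ftl1 was 0.58, 0.24, 0.49 and 0.54 with GFP and 0.62, 0.72, 0.70 and 0.61 with LCN2. Again the groups did not overlap, though GFP replicate 1 and LCN2 replicate 4 were close. This ratio was formed after the values were seen, so no test was made of it. In subcutaneous fat by themselves, Ftl1 had a difference of -0.16 ± 0.13 and Fth1 one of 0.04 ± 0.10, with adjusted p by limma of 0.575 and 0.857.

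**Figure D4:**
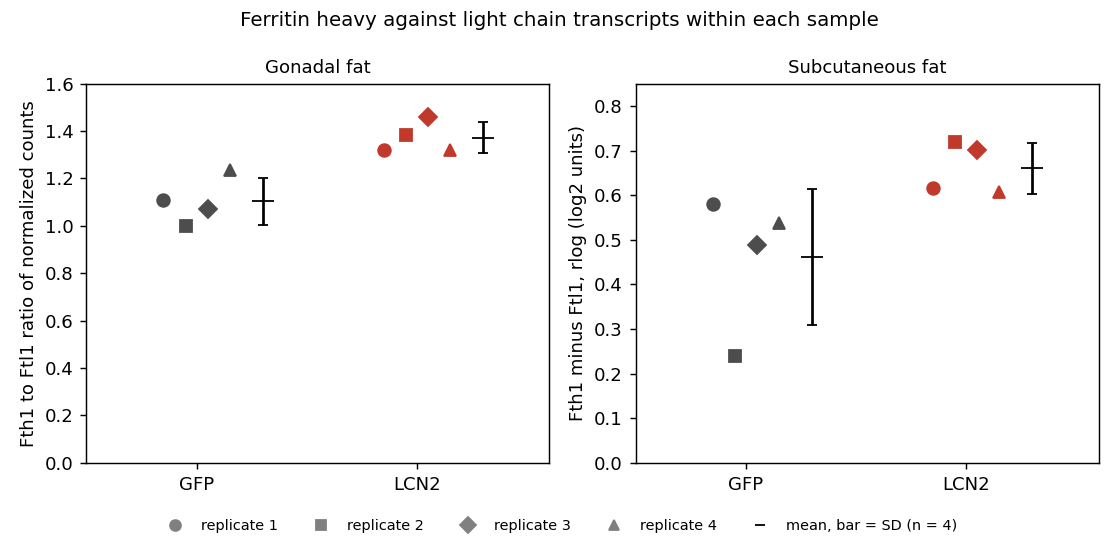
Fth1 against Ftl1 within each sample, as the ratio of normalized counts in gonadal fat and as the difference of rlog values in subcutaneous fat. Points are samples, shapes the replicate number, and bars the mean and SD. LCN2 samples lie between 1.32 and 1.459 in gonadal fat, above the highest GFP sample at 1.236. The ratio was formed after the values were seen and was not tested.

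The regulators showed no difference that passed. Aco1 (chr4:40143081-40198338, plus strand) varied widely in gonadal GFP samples, at 7726, 12041, 12995 and 5080, against 7376, 6902, 9347 and 8023 with LCN2. Both the lowest and the highest of the 8 values were GFP samples. The log2 difference was -0.17 ± 0.28 (limma, adjusted p = 0.828), and in subcutaneous fat it was -0.06 ± 0.11 (adjusted p = 0.83). Ireb2 (chr9:54863789-54912530, plus strand) averaged 2519 ± 145 normalized counts (SD, n = 4) in LCN2 samples and 2515 ± 273 in GFP samples. In subcutaneous fat it had the smallest spread of the 10 genes, at an rlog of 11.33 ± 0.02 against 11.32 ± 0.02. Its differences were 0.01 ± 0.10 and 0.02 ± 0.04 (adjusted p = 0.984 and 0.854).

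**Figure D5:**
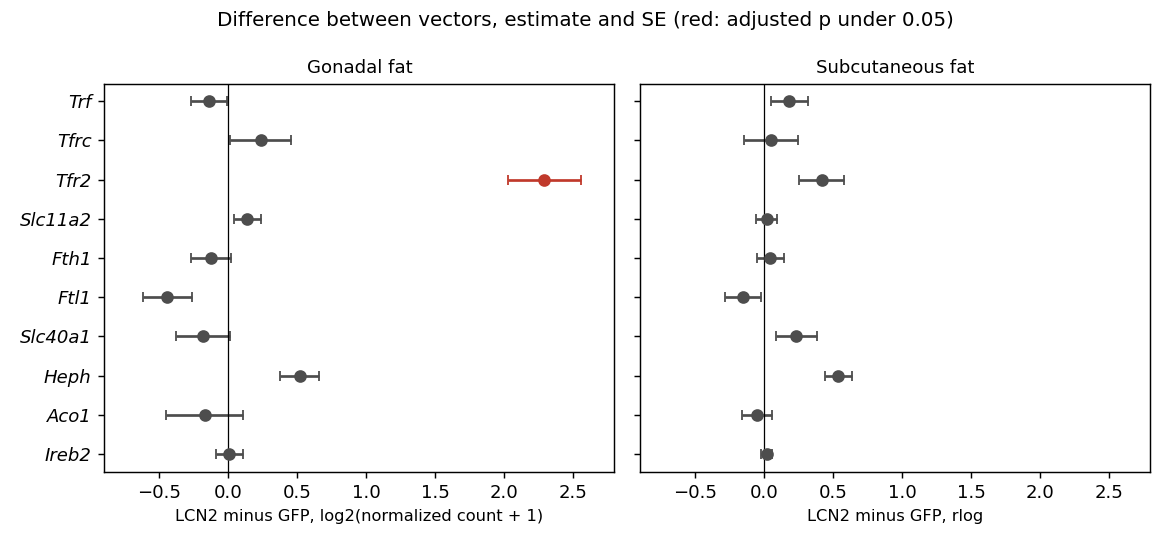
Difference between LCN2 and GFP samples for the 10 iron genes, estimate and SE from limma, on the log2(normalized count + 1) scale in gonadal fat and the rlog scale in subcutaneous fat. The vertical line is 0 and red marks an adjusted p under 0.05. Tfr2 in gonadal fat, at 2.29, is the only red point.

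Side by side, 5 of the 10 genes had a positive difference in gonadal fat, where 52% of all genes did, and 8 in subcutaneous fat, where 49.8% did. Their median difference was -0.06 and 0.05, and that of all genes tested was 0.01 and -0.0008. An unadjusted p under 0.05 was found for 3 of the 10 in gonadal fat (Tfr2, Heph and Ftl1) and for 2 in subcutaneous fat (Heph and Tfr2), beside 14.8% and 14% of all genes.

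Other genes of iron handling did not pass in either depot. Of 66 tested in gonadal fat, none passed limma's test, beside 0.102% of all genes. A positive difference was found for 31, beside 52%, and an unadjusted p under 0.05 for 15 (22.7%), beside 14.8%. The median difference was -0.01. Of 68 tested in subcutaneous fat, none passed, beside 0% of all genes, and the median was 0.02. There 37 were positive, beside 49.8%, and 6 (8.82%) had an unadjusted p under 0.05, beside 14%. On recovered gonadal reads edgeR called 0 of them and DESeq2 called 5, all lower with LCN2: Flvcr2, Neo1, Lrp2, Steap2 and Sfxn1. Over all 19067 genes with an adjusted p, DESeq2 called 4.29%, 444 higher with LCN2 and 374 lower.

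In gonadal fat the 6 with the smallest p were Flvcr2, a heme transporter family gene, at -0.94 ± 0.22, Neo1, which encodes the hemojuvelin-binding receptor neogenin, at -0.39 ± 0.09, Lrp2, the gene of the endocytic receptor megalin, at -1.64 ± 0.42, Steap2, a metalloreductase gene, at -0.89 ± 0.24, Hscb, a chaperone gene of iron-sulfur cluster assembly, at -0.45 ± 0.14, and Sfxn1, a mitochondrial serine carrier gene, at -1.001 ± 0.312. All 6 leaned lower with LCN2, with adjusted p by limma from 0.157 to 0.208. The groups of Flvcr2, Neo1 and Hscb did not overlap. Of all 66, 1 was apart and higher and 5 apart and lower, beside 4.4% and 4.71% of all genes. For Flvcr2 the LCN2 samples lay at 140, 106, 107 and 100.3 normalized counts and the lowest GFP sample at 153.

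In subcutaneous fat those with the smallest p included Sfxn1 at -0.53 ± 0.11, Acvr2a, an activin and BMP receptor gene, at 0.29 ± 0.10, and Iscu, the scaffold of iron-sulfur clusters, at 0.20 ± 0.07, then Steap3, the endosomal ferrireductase that works beside the transferrin receptor, at 0.38 ± 0.16, and Bmpr1a, a BMP receptor gene, at 0.28 ± 0.12. Their adjusted p ran from 0.308 to 0.35. Of all 68, 1 was apart and higher and 2 apart and lower, beside 3.81% and 3.27% of all genes. Sfxn1 was named in both depots, and all 4 subcutaneous LCN2 samples, at 11.79, 11.50, 11.58 and 11.77 rlog, lay below the lowest GFP sample at 12.03.

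Hepcidin and its partners gave no clearer picture. Of the 16 genes tested in the list of hepcidin and its control, 10 were positive in gonadal fat and 12 in subcutaneous fat, with medians of 0.19 and 0.11 and none past the test. Hfe, whose protein binds transferrin receptors, is named here after its values were seen. Its gonadal normalized count was 2764, 2793, 4694 and 1533 with GFP and 3029, 6194, 6976 and 4070 with LCN2, with overlapping groups and a log2 difference of 0.82 ± 0.36 (limma, adjusted p = 0.336). Its subcutaneous difference was 0.73 ± 0.33 (adjusted p = 0.367).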

How the data were processed

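The submitters' processing notes name HISAT2, DESeq2, GRCm38 and mm10. No version, counter, strand setting or annotation is given in the sources used here. Frozen tissue was the RNA source and the mRNA library kit keeps strand, per the labels' protocols. The gonadal table was deposited as a signal per gene: the authors divided counts by a size factor for each sample. Divided by what 1 read is worth, 100% of a sample's values were whole within 1e-06 (recovered reads). In these libraries 3 reads, set as the fewest for detection, equal 0.0699 to 0.0853 CPM. The tests used another floor, given below. The subcutaneous table was deposited by the authors as rlog values, on a log2 scale.

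Of the identifiers, 99.4% in each table matched a symbol in GENCODE M21 (GRCm38), which also gave exon lengths. For gonadal fat, limma (version 3.58.1, R version 4.3.3) with a trend of variance on mean level was run on log2(normalized count + 1), keeping genes that averaged 10 or more. A fold change on that scale understates the change of low genes. Subcutaneous rlog was tested as deposited, keeping genes that averaged 3 or more. A difference is the LCN2 mean less the GFP mean, tests are two-sided, and p-values were adjusted over all genes tested (Benjamini-Hochberg, threshold 0.05). edgeR 4.0.16 and DESeq2 1.42.0 were run on recovered reads as alternatives. Both fits were checked on simulated data. The members and lists were chosen with earlier results of these data known. Named genes were the 10 members, Lcn2, the 6 other iron genes with the smallest p in each depot, the 5 genes most like Tfr2 and copies or overlapping genes of members. Of these, 1 gene is not reported here. No pair of gonadal libraries of the same vector agreed within sampling noise (mean chi-square per gene of at least 45.8). Marker lists covered adipocytes, hepatocytes, erythroid cells, macrophages, skeletal muscle, mesothelium, lymphocytes, proliferation, endothelium and Schwann cells. No gene on the erythroid, macrophage or Schwann cell lists passed. Alternatives covered scaling, filter, pseudocount, test, replicate block and libraries left out.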

Additional observations from a re-analysis of the deposited data

Results flagged for a closer look

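Samples that stood apart from their group were looked for in 40 groups of 4, and chance flags about 1 group in 20. Tfrc gave both. In gonadal fat LCN2 replicate 3, at a normalized count of 1353.8, lay above the next sample by a gap of 0.961 of its group's range. In subcutaneous fat GFP replicate 4, at an rlog of 9.3808, lay below the next sample by a gap of 0.9435 of its group's range.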

How the results depend on the processing

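In gonadal fat 20 genes were called, 8 higher and 12 lower, and 1 of the 10 iron genes, Tfr2. The count of genes was 7 with edgeR (4 higher, 3 lower), 818 with DESeq2 (444 higher, 374 lower) and 6 with library totals (4 higher, 2 lower). It was 0 without the Alb-rich libraries (GFP replicate 1, LCN2 replicates 1 and 2) and 0 without GFP replicate 2 and LCN2 replicate 4 (1622 and 1689 genes had an unadjusted p under 0.05), and 1 to 66 with 1 library left out. The count of iron genes called was 2 with DESeq2, 0 without either of these sets and 0 to 1 with 1 library left out, and DESeq2 called 5 other iron genes. With the replicate number as a block, limma called 0 genes and 0 iron genes (Tfr2 2.29 ± 0.18, adjusted p = 0.116; 2636 genes with an unadjusted p under 0.05). Deviations of same-numbered gonadal samples correlated between -0.359 and 0.424, and those of subcutaneous samples between -0.355 and 0.339. LCN2 replicates 1 and 3 in gonadal fat and 3 in subcutaneous fat correlated best with the GFP sample of their own number. The other LCN2 replicates did not. With 4 samples per group these correlations cannot decide whether the numbers pair the samples. In subcutaneous fat limma called 0 genes under every alternative run, with 2851 genes at an unadjusted p under 0.05 in the fit of all samples, 5831 with sample weights, 919 with both lymphocyte-rich libraries removed, and from 1445 to 3895 with 1 library left out, GFP replicate 2 giving the fewest and GFP replicate 3 the most. The sign held under all alternatives for 8 of 10 iron genes in gonadal and 5 of 10 in subcutaneous fat. It turned for Ireb2 in gonadal fat with library totals (-0.0040), for subcutaneous Tfrc with sample weights (-0.097) and for subcutaneous Trf without the lymphocyte-rich libraries (-0.0048). With 1 library left out, gonadal Aco1 ran from -0.44 to 0.013, gonadal Ireb2 from -0.069 to 0.049, subcutaneous Tfrc from -0.16 to 0.17, Slc11a2 from -0.033 to 0.0497, Fth1 from -0.0245 to 0.088 and Aco1 from -0.11 to 0.0301. The cause was not tested.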
